A study of Mus musculus with 6 samples.

Results

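A set of 35 fibroblast and extracellular matrix genes was followed through RNA sequencing of mouse embryonic stem cells, because stem cells grown on fibroblast feeders can carry feeder RNA into the libraries. The genes were taken by symbol from a fixed list, and those that reached 10 normalized counts in 2 or more of the 6 libraries were tested. A normalized count is the reads of a gene divided by 1 size factor per library. Of the 35 genes, 34 passed this filter, among 15287 passing genes of 19713 in the table. The 1 gene that did not pass was Lum. The cells were derived from C57Bl/6 blastocysts and had 3 genotypes: wild type (WT), Thap1 C54Y/C54Y (C54Y, a missense allele of the transcription factor THAP1 that alters its zinc-binding DNA recognition domain) and Thap1 ΔExon2, labelled THAP1 -/- (KO). Each genotype had 2 libraries, numbered replicate 1 and replicate 2. For all 6 libraries, WT included, the stem cells had been kept on irradiated mouse embryonic fibroblasts over gelatin, in serum medium supplemented with LIF (1000 units per ml). Whether a genotype was 1 clone, and whether its 2 libraries came from separate cultures, is not given in the sources used here, so p-values measure only the spread between these samples.

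Fibroblasts build the connective tissue matrix. They secrete fibrillar collagens that are trimmed outside the cell, joined into fibrils and crosslinked by lysyl oxidases. Fibronectin, proteoglycans and elastic fibre proteins fill and organise the space between the fibrils. In culture on plastic many fibroblasts also take on contractile genes of smooth muscle, such as the smooth muscle actin gene Acta2. Pluripotent cells make little fibrillar collagen but do make fibronectin and basement membrane proteins, and cells that differentiate towards endoderm or mesoderm switch on further members of the list.

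Library depth ranged from 31774656 to 46772996 reads. The 3 libraries of replicate 1 and the 3 of replicate 2 stood apart across all genes: 9917 of 15287 genes (64.9%) differed between the replicate numbers at an adjusted p under 0.05 by limma with genotype as a term and Benjamini-Hochberg adjustment. KO replicate 1 also stood apart for the genes described here. It was the lowest of the 6 libraries for 26 of the 34 tested genes, against 18.75% of all tested genes. Thap1 itself had 433 and 701 normalized counts in WT and 1687 to 2533 in the mutant libraries, and a count over the whole gene checks neither the deletion nor the missense change.

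As fibroblast markers, the type I collagen genes were present in every library, while other genes typical of fibroblasts ranged from clearly present to near 0. In reads per kilobase of exon and per 1000000 reads of the library, Col1a1 lay between 2.39 and 25.1 and Col1a2 between 1.29 and 9.20. Thy1 ranged from 2.05 to 5.77, Col3a1 from 0.293 to 1.82 and Pdgfrb from 0.139 to 0.850. On the same scale Dcn, the proteoglycan decorin, did not exceed 0.0902, and Postn, the matrix protein periostin, did not exceed 0.162. Lum, the proteoglycan lumican, had 2 reads in C54Y replicate 1 and 0 in the other 5 libraries, where 0 reads (a limit of 3 reads) allow up to 0.0738 reads per 1000000 (RPM) in KO replicate 1 and 0.0944 in C54Y replicate 2. The list also differed widely in level. Tagln, Acta2 and Fn1 had the highest means over the 6 libraries, 88.8, 77.9 and 74.0 on that scale, followed by S100a4 (36.7), Thbs1 (21.4), Fstl1 (15.7) and Col1a1 (14.5). The genes are therefore called fibroblast and matrix genes below, and in bulk RNA fewer fibroblasts and less RNA of these genes per cell cannot be told apart.

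All 35 genes together took 0.117% (95% Wilson interval 0.116% to 0.118%) of the reads in KO replicate 1, the lowest share, and 0.233% (95% Wilson interval 0.232% to 0.235%) in C54Y replicate 1, the highest. These intervals cover counting error only. The other 4 libraries held 0.193% to 0.226%. Fn1 alone made up much of this sum. Without Fn1 the summed RPM were 1082, 846 and 310.4 in WT, C54Y and KO of replicate 1 and 1406, 1639 and 1347 in replicate 2. Col1a1 and Col1a2 summed to 86.0, 87.0 and 31.7 in WT, C54Y and KO of replicate 1 and 237, 279 and 246 in replicate 2. By this last measure every library of replicate 2 was above every library of replicate 1, and KO replicate 1 was below the other 2 libraries of its replicate number.

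**Figure D1:**
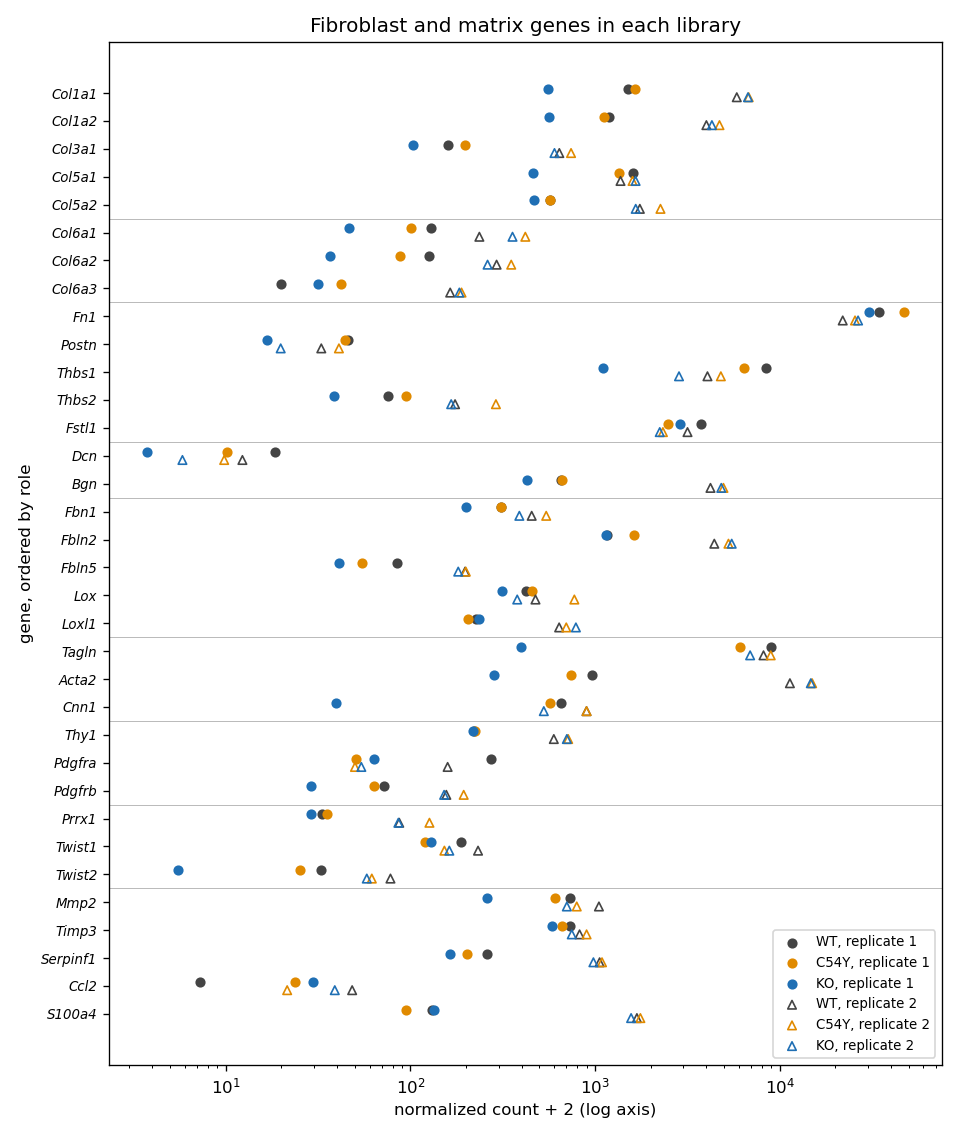
Normalized count plus 2 of the 34 tested fibroblast and matrix genes (x axis, log scale) for each gene (y axis, grouped by role between the grey lines). Filled circles are replicate 1 and open triangles replicate 2, 1 point per library, coloured by genotype; for Col1a1 the 3 triangles lie right of all 3 circles, and the KO circle is leftmost.

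The larger contrast among these genes was between the replicate numbers. Of the 34 genes, 21 were higher in replicate 2 (background 32% of all tested genes) and 1 was lower (background 32.8%) at an adjusted p under 0.05. The median difference of the 34 was 1.63 on the log2 scale, against 0.01 for all tested genes. Scaling to total reads in place of the size factors moves the median of all genes to -0.36, and the medians of the 34 genes within WT, C54Y and KO were then 0.81, 1.25 and 1.64, against 1.22, 1.61 and 1.98 with the size factors. Libraries of replicate 2 lay above all libraries of replicate 1 for 21 of the 34 genes (background 29.7%) and below them for 1, Fn1 (background 31.4%).

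Type I collagen was among the genes that rose. Col1a1, which encodes its α1 chain, had 1500.0 (WT), 1651 (C54Y) and 554 (KO) in replicate 1 and 5855, 6794 and 6735 in replicate 2. Its partner chain gene Col1a2 had 1184, 1114 and 564 in replicate 1 and 4007, 4718 and 4293 in replicate 2. Both were highest in the 3 libraries of replicate 2, with no overlap, and differed by 2.53 ± 0.29 (log2 fold change ± SE, adjusted p = 8.74e-05) and 2.25 ± 0.20 (adjusted p = 1.49e-05) by limma. Acta2 had the widest difference, with 966, 736 and 282 in replicate 1 and 11359.8, 14988 and 14746 in replicate 2, or 4.53 ± 0.36 (adjusted p = 3.62e-05). That call was lost without C54Y replicate 1 (adjusted p = 0.0849) and kept in the other 5 fits lacking 1 library. S100a4, a calcium-binding protein gene often used to mark fibroblasts, had 128, 93.2 and 133 in replicate 1 and 1683, 1758 and 1566 in replicate 2 (3.81 ± 0.18, adjusted p = 7.18e-07). Bgn, the proteoglycan biglycan, had 656, 662 and 428 in replicate 1 and 4217, 4957 and 4825 in replicate 2 (3.02 ± 0.17, adjusted p = 1.05e-06). Serpinf1, which encodes the secreted serpin PEDF, rose by 2.34 ± 0.17 and Fbln2, an elastic fibre protein gene, by 1.97 ± 0.14.

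Other members were not called higher. Fn1, the fibronectin gene, was lower in replicate 2, with 34313, 47232 and 30396 in replicate 1 and 21956, 25599 and 26592 in replicate 2 (-0.57 ± 0.13, adjusted p = 0.00355). Thbs1, the matricellular protein thrombospondin, stood at -0.03 ± 0.42 (adjusted p = 0.954), lower in replicate 2 in WT and C54Y and higher in KO. With Thbs1, 12 genes were called in neither direction, the others being Col5a1, Postn, Fstl1, Dcn, Lox, Tagln, Cnn1, Pdgfra, Twist1, Timp3 and Ccl2. These were not shown to be unchanged. Some pointed up, such as Cnn1 (1.62 ± 0.62, adjusted p = 0.0594 by limma). Others pointed down, such as Pdgfra (-0.35 ± 0.25, adjusted p = 0.249 by limma). In WT, 26 of 34 genes were higher in replicate 2 (background 49.9%) and 8 were lower (background 50%), namely Col5a1, Fn1, Postn, Thbs1, Fstl1, Dcn, Tagln and Pdgfra. The set thus held genes that rose in replicate 2, such as most collagens, Bgn, S100a4 and Acta2, a gene that fell, Fn1, and genes called in neither direction, such as Thbs1.

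Markers of other cells also moved with the replicate number. Of 9 macrophage markers 7 were tested and 6 rose in replicate 2 (Lyz2, C1qa, C1qb, Emr1, Csf1r and Cd14; background 32%). C1qa, C1qb and Emr1 passed the filter through replicate 2 libraries alone and could not have fallen, which leaves Lyz2, Csf1r and Cd14. The normalized counts in WT, C54Y and KO were, for Lyz2, 8.96, 13.6 and 10.4 in replicate 1 and 329, 396 and 369 in replicate 2 and, for C1qa, 3.73, 2.04 and 4.34 in replicate 1 and 54.05, 90.9 and 67.5 in replicate 2. The list summed to 10.9 to 29.3 RPM, and the leukocyte gene Ptprc did not exceed 3.90 normalized counts. Their part in the difference between the replicate numbers was not tested.

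**Figure D2:**
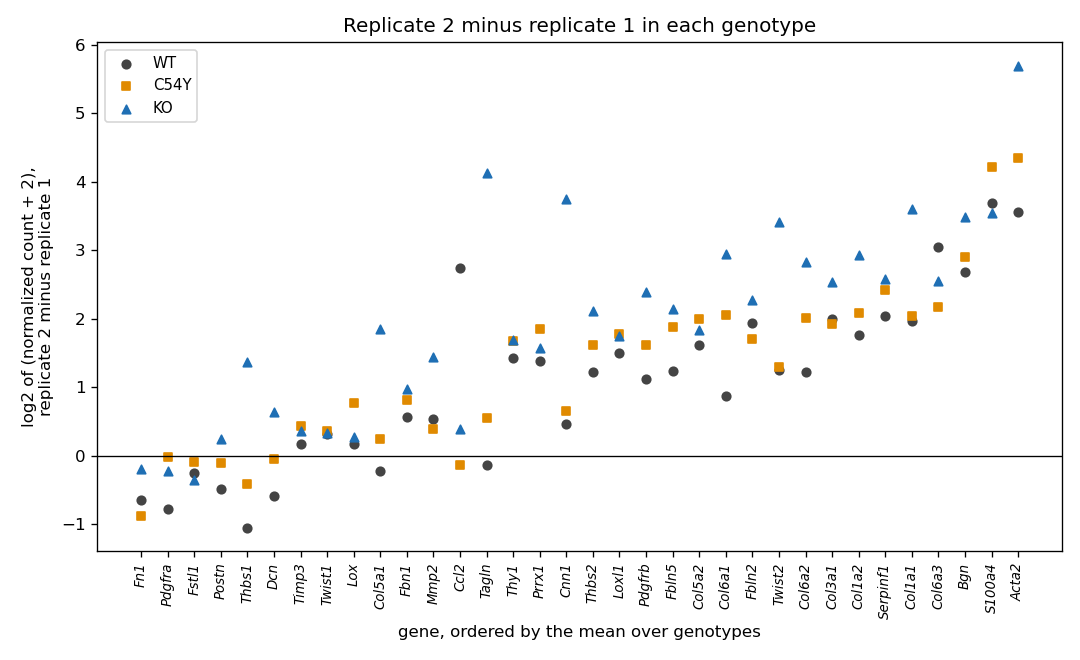
Difference in log2 of normalized count plus 2, replicate 2 minus replicate 1 (y axis), for each of the 34 tested genes (x axis, ordered by the mean over genotypes), 1 point per genotype with no error bar since each is a single pair of libraries. Points for Fn1 lie below 0 in all 3 genotypes, and those for Bgn, S100a4 and Acta2 lie above 2.5.

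Promoter windows are shown for genes that carry the differences between replicate numbers or between genotypes. RefSeq windows (GRCm38.p6) matched 22 of the 35 symbols with 25 windows, and the 250 bases before the annotated start are given 5′ to 3′ for Col1a2, Acta2 and S100a4, which rose in replicate 2, and for Pdgfra, the gene called in both mutants. Capitals mark matches on either strand to TATAA (the core of a TATA box), to CCAAT (the box bound by NF-Y) or to TNNGGGCA (a core described for THAP1 binding sites).
Col1a2, chr6:4505368-4505617 (+): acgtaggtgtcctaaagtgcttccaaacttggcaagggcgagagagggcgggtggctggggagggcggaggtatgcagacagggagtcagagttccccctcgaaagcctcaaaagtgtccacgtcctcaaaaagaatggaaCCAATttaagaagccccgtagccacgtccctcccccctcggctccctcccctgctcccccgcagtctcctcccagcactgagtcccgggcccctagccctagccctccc
Acta2, chr19:34255374-34255623 (-): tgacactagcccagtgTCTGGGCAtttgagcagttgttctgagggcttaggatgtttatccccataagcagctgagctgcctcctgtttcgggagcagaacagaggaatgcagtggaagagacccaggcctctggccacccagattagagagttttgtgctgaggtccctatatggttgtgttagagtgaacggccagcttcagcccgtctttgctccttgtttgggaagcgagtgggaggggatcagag
S100a4, chr3:90603520-90603769 (+): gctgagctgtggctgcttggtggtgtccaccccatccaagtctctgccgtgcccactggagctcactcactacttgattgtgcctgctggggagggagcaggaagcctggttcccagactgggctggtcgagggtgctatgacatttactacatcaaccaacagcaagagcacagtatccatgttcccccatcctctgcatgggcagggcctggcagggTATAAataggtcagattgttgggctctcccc
Pdgfra, chr5:75152001-75152250 (+): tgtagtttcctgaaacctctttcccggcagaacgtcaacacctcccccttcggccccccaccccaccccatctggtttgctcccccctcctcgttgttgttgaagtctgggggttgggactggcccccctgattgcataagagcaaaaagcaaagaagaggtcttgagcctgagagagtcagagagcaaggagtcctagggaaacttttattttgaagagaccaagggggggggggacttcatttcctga
CCAAT lies 109 to 105 bases before the start of Col1a2, TATAA 31 to 27 bases before that of S100a4, and TNNGGGCA 234 to 227 bases before that of Acta2. The Pdgfra window held none of these letters, which says nothing of the factors that act there. Over all 32851 windows of this length, 22.8% held TATAA, 33.9% CCAAT and 11.9% TNNGGGCA. Among the 25 windows of the set the counts were 6, 7 and 5.

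KO was set against WT to see which of these transcripts differ when exon 2 of Thap1 is deleted. Without replicate number in the model, limma called 0 of 34 genes, and 0 of all 15287 (0%), with 3 of the 34 and 1049 of all genes at an unadjusted p under 0.05. DESeq2 without the block called 1 of the 34, Pdgfra, and 235 genes in all. With replicate number as a block limma called 2 of 34, Pdgfra and Mmp2, both down, against a background of 16.3% called, 8.9% up and 7.41% down. The share of members called down was thus near the background. The libraries of KO lay below both WT libraries for 10 of the 34 (background 13.6%) and above them for 0 (background 13.6%). The 10 were Cnn1, Dcn, Fstl1, Lox, Mmp2, Pdgfra, Postn, Tagln, Thbs1 and Twist1. Dcn reached 10 normalized counts in the WT libraries alone, so the filter fixed its place below WT, and the other 9 are the count to read.

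The 2 replicate numbers gave different pictures of KO. In replicate 1, 30 of the 34 genes were lower in KO than in WT (background 40.9%), 16 of them at least 2-fold (background 10.5%), and 4 were higher (background 59%), Col6a3, Loxl1, Ccl2 and S100a4, with Ccl2 at least 2-fold (background 7.99%). The median was -0.81 against 0.12 for all tested genes. In replicate 2, 23 were lower (background 52.3%), 2 at least 2-fold (background 7.76%), and 11 were higher (background 47.6%), 0 at least 2-fold (background 7.69%). The median was -0.11 against -0.02, and the 2 genes at least 2-fold lower were Dcn and Pdgfra. Of the 34 genes, 21 were lower in KO in both replicate numbers (61.76%, against 29.48% of all tested genes). Dcn is in each of these counts of lower genes. It passed the filter through WT alone, so its direction in KO was fixed by the filter. A group of 9 genes, Col1a1, Col1a2, Col5a1, Col6a1, Fn1, Bgn, Fbln2, Acta2 and Thy1, was lower in KO in replicate 1 and higher in replicate 2 (11.41% of all tested genes did so). Each of these is a difference between 2 single libraries and has no replicate check. With the block and without KO replicate 1, limma called 7 of 34: Cnn1, Fstl1, Mmp2, Pdgfra and Thbs1 down and Fbln2 and Fn1 up (26.4% of all tested genes were called in that fit). Without KO replicate 2 it called 16, all down, among them Col1a1, Col1a2, Acta2 and Tagln (31.8% of all genes). Without WT replicate 1 it called 4 down (12.2% of all genes) and without WT replicate 2 it called 7 down and 1 up (11.4%). Without C54Y replicate 1 or C54Y replicate 2 it called 3 down (15.1% and 14.3%). With 1 KO library removed the other is fitted without a residual of its own, so those calls rest on a single KO library.

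**Figure D3:**
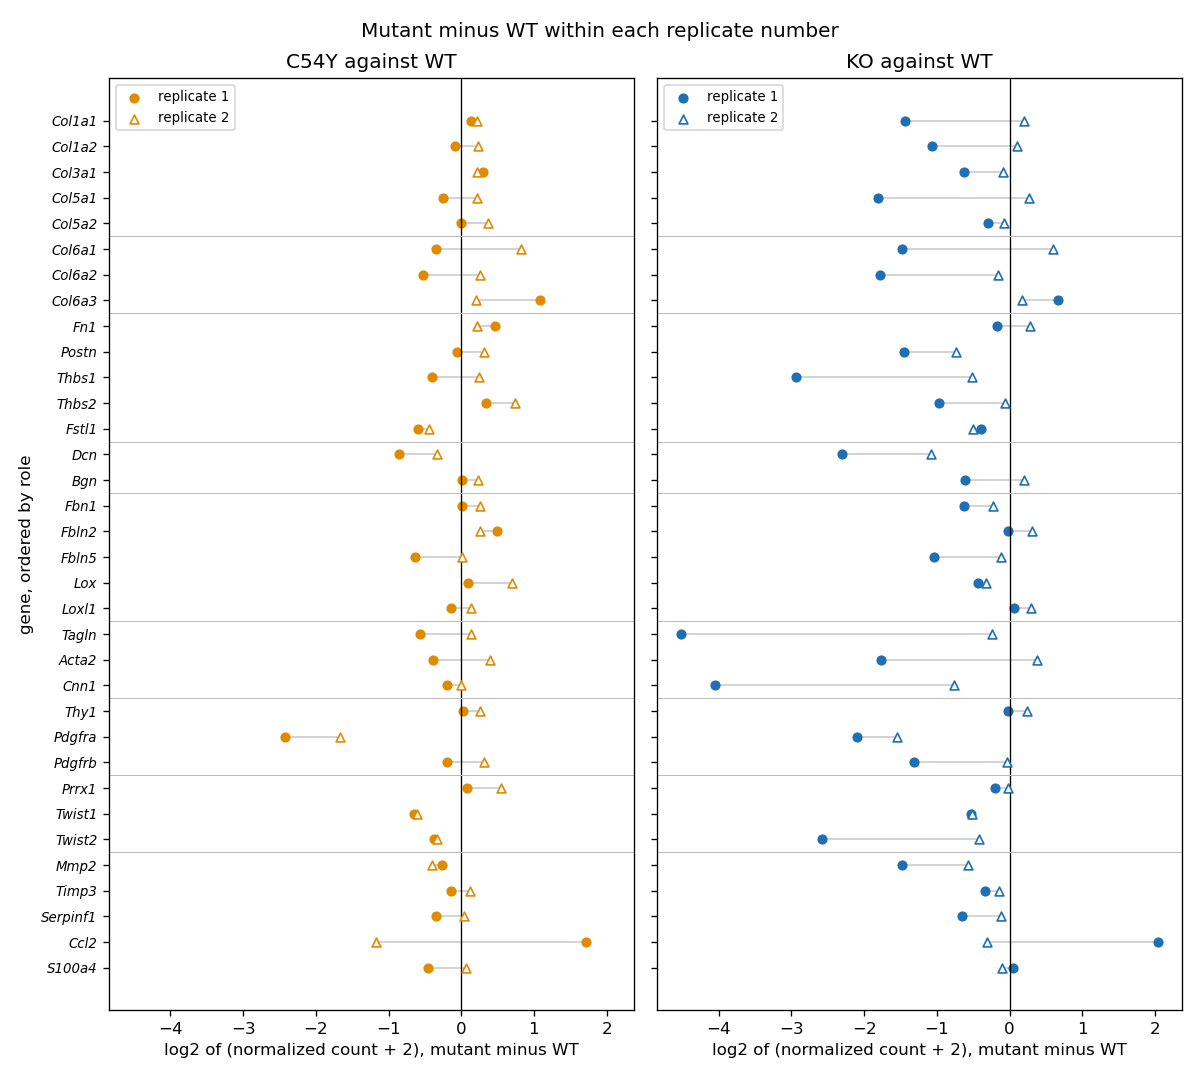
Difference in log2 of normalized count plus 2, mutant minus WT (x axis), for the 34 tested genes (y axis, grouped by role), in C54Y (left) and KO (right). Filled circles are replicate 1 and open triangles replicate 2, each 1 library against 1; the KO circles of Tagln and Cnn1 lie below -4 while their triangles lie at -0.24 and -0.77, and Pdgfra lies left of 0 at all 4 points.

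Among the fibrillar collagens, KO replicate 1 was the lowest library for all 5 genes. Against its WT library, Col5a1, a collagen V chain that starts fibrils, stood at -1.80 on the log2 scale, Col1a1 at -1.43, Col1a2 at -1.07, Col3a1 at -0.63 and Col5a2 at -0.30. In replicate 2 the same 5 lay between -0.09 and 0.27. Averaged over both numbers, Col1a1 was at -0.62 ± 0.35 (adjusted p = 0.276 with the block) and Col1a2 at -0.48 ± 0.25 (adjusted p = 0.224), neither called. Without KO replicate 1 both turned to the other direction, to 0.18 and 0.02 with the block. Collagen VI forms beaded microfibrils around cells. Its chain gene Col6a1 had 127, 99.3 and 44.3 in replicate 1 and 234, 417 and 355 in replicate 2 in WT, C54Y and KO, and Col6a2 had 124, 85.7 and 34.7 in replicate 1 and 291, 349 and 259.7 in replicate 2. In both, KO was the lowest of the replicate 1 libraries. Col6a3 went the other way in replicate 1, at 0.66, with 17.9 normalized counts in WT.

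The contractile genes had the largest gap of all. Tagln, which encodes the actin-binding protein transgelin, had 9022 (WT), 6106 (C54Y) and 393 (KO) in replicate 1 and 8172, 8943 and 6915 in replicate 2. Cnn1, the calponin gene, had 653, 571 and 37.4 in replicate 1 and 897, 898 and 526 in replicate 2. For both, KO replicate 1 was far below the other 5 libraries, 23.0-fold and 17.5-fold below WT of the same number, while KO replicate 2 was 1.18-fold and 1.71-fold below. Acta2 was 3.42-fold lower in KO replicate 1 and 1.30-fold higher in KO replicate 2. None of the 3 was called over both numbers (Tagln -2.38 ± 1.28, adjusted p = 0.332; Cnn1 -2.41 ± 0.76, adjusted p = 0.0849; Acta2 -0.70 ± 0.44, adjusted p = 0.335, limma with the block). Without KO replicate 1, Tagln stood at -0.41 and Cnn1 at -0.82, and Acta2 turned to 0.18.

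Adhesive and matricellular genes did not share 1 order of libraries. Thbs1 had 8442 (WT), 6383 (C54Y) and 1099 (KO) in replicate 1 and 4061, 4799.9 and 2847 in replicate 2. KO was the lowest library of both replicate numbers, 7.68-fold and 1.43-fold below WT, at -1.73 ± 0.52 over both (adjusted p = 0.0749), and without KO replicate 1 it stood at -0.67. Fn1 was at -0.17 and 0.28 in KO. Fstl1, a secreted glycoprotein gene, had 3761, 2495 and 2872 in replicate 1 and 3166, 2329 and 2239 in replicate 2, at -0.44 ± 0.14 (adjusted p = 0.0698; edgeR with TMM factors and the block called it, adjusted p = 0.0362). Postn, at 14.8 to 44.1 normalized counts, and Thbs2, at 36.5 to 288, were lowest in KO replicate 1 and not called.

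Of the proteoglycan genes, Bgn stood at -0.61 and 0.19 in KO in the 2 replicate numbers. Dcn had 16.4 (WT), 8.16 (C54Y) and 1.74 (KO) in replicate 1 and 10.3, 7.79 and 3.82 in replicate 2, and its KO libraries held 2 and 3 reads, so that its level in KO is imprecise. The elastic fibre and crosslinking group has 5 genes. Fbln2 had 1156, 1622 and 1137 in replicate 1 and 4423, 5278 and 5496 in replicate 2, and Lox, the lysyl oxidase that crosslinks collagen and elastin, had 421, 451 and 313 in replicate 1 and 474, 770.3 and 377 in replicate 2. In KO, Lox was at -0.43 and -0.33 against WT, and Loxl1 was above 0 in both, at 0.06 and 0.30. Fbln5 and Fbn1, elastic fibre and microfibril genes, were lowest in KO replicate 1, at -1.03 and -0.63 against WT, and stood at -0.12 and -0.22 in replicate 2. None of the 5 genes of this group was called in KO or C54Y with all libraries in the model.

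Pdgfra was the 1 member called in both mutants. This receptor for platelet-derived growth factor is carried by fibroblasts and also marks primitive endoderm, the extraembryonic lineage that embryonic stem cell cultures produce at a low rate. Its normalized counts were 272 (WT), 49.0 (C54Y) and 61.7 (KO) in replicate 1 and 157, 48.1 and 52.2 in replicate 2. Both WT libraries lay above all 4 mutant libraries. With the block its log2 fold change was -1.83 ± 0.31 in KO (adjusted p = 0.00584). In C54Y the log2 fold change was -2.05 ± 0.31 (adjusted p = 0.0164). Without the block limma called Pdgfra in neither mutant (adjusted p = 0.587 in KO). With the block and each of the 6 libraries left out in turn, it ranged from -2.16 to -1.50 in KO and from -2.37 to -1.72 in C54Y. A fit lacking a WT or mutant library rests on a single library of that group. The mutants were not shown to differ from each other (0.22 ± 0.31, adjusted p = 0.785). The 2 comparisons share the WT libraries. Pdgfrb, the related receptor gene of fibroblasts and pericytes, did not share this order, with 70.2, 61.2 and 26.9 in replicate 1 and 154, 192 and 150.2 in replicate 2, and Thy1, a fibroblast surface glycoprotein, had 219.6, 222 and 217 in replicate 1 and 596, 713 and 701 in replicate 2.

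Markers of visceral and primitive endoderm moved with Pdgfra. Of 9 such markers 7 were tested, and 6 were lower in each mutant with the block: Cubn, Dab2, Foxa2, Gata4, Gata6 and Sox17 (background called down 7.41% in KO and 0.399% in C54Y). Foxa2 passed the filter through WT alone, so its direction was fixed by the filter. Gata6, a regulator of primitive endoderm, had 154, 35.4 and 35.6 in replicate 1 and 169, 22.1 and 24.2 in replicate 2 in WT, C54Y and KO (-2.38 ± 0.34, adjusted p = 0.0029 in KO; -2.44 ± 0.34, adjusted p = 0.0116 in C54Y). The marker list summed to 113, 25.7 and 13.5 in WT, C54Y and KO of replicate 1 and 65.4, 17.97 and 8.73 in replicate 2 RPM, and Afp and Ttr did not exceed 5.98 normalized counts in any library. The part of these cells in the Pdgfra result was not tested.

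Mmp2, a secreted protease that degrades collagen, was the other member called in KO. It had 726 (WT), 606 (C54Y) and 258 (KO) in replicate 1 and 1047, 794 and 701 in replicate 2. Both KO libraries lay below both WT libraries, by a narrow margin between KO replicate 2 and WT replicate 1, and the log2 fold change was -1.03 ± 0.26 (adjusted p = 0.0283 with the block; 0.994 without it). The call was lost without WT replicate 1 (adjusted p = 0.0768). In C54Y it stood at -0.33 ± 0.26 (adjusted p = 0.712). Timp3, a matrix-bound inhibitor of such proteases, had 734, 664 and 581 in replicate 1 and 822, 898 and 746 in replicate 2, a range of less than 2-fold. Ccl2, a chemokine gene, had 5.23, 21.8 and 27.8 in replicate 1 and 46.3, 19.5 and 36.9 in replicate 2 and the highest KO fold change of the set, 0.87 ± 0.64 (adjusted p = 0.401), with WT replicate 1 the lowest library. S100a4 and Serpinf1 stood at 0.05 and -0.65 in KO of replicate 1 and at -0.10 and -0.11 in replicate 2. The transcription factor genes of mesenchyme included Twist1, with 185, 118 and 128 in replicate 1 and 230.3, 151 and 160.4 in replicate 2, in which all 4 mutant libraries were below both WT libraries, though it was not called (-0.52 ± 0.24, adjusted p = 0.179 in KO; -0.63 ± 0.24, adjusted p = 0.324 in C54Y). Prrx1 had 31.4, 33.3 and 26.9 in replicate 1 and 84.9, 125 and 84.0 in replicate 2, and Twist2 had 3.47 in KO replicate 1 against 23.1 to 75.9 in the others.

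C54Y was set against WT to see the same for the missense allele. Apart from Pdgfra, no member was called (1 of 34 with the block, background 1.36% called, 0.962% up and 0.399% down; 0 without it, where 1 of 34 and 252 of all genes had an unadjusted p under 0.05). In replicate 1, 22 of 34 genes were lower in C54Y than in WT (background 47.3%) and 12 higher (background 52.7%). In replicate 2, 27 were higher (background 48.2%), 0 at least 2-fold (background 6.05%), and 7 lower (background 51.6%). The medians were -0.17 and 0.22. Those at least 2-fold lower were Pdgfra in replicate 1 (background 1.74%) and Pdgfra and Ccl2 in replicate 2 (background 4.13%), and Col6a3 and Ccl2 were at least 2-fold higher in replicate 1 (background 2.9%). Col1a1 was at 0.14 and 0.21. The C54Y libraries lay below both WT libraries for 4 genes, Dcn, Fstl1, Pdgfra and Twist1 (background 8.69%), of which Dcn passed the filter through WT alone, and above them for 0 (background 9.3%). Without KO replicate 1, or without KO replicate 2, 4 members were called with the block, Fstl1 and Pdgfra down and Fbln2 and Fn1 up, a share of 11.8% against 11.9% and 10.6% of all genes in those fits. Without WT replicate 1, 2 were called, Pdgfra down and Tagln up (3.55% of all genes).

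Between the mutants, 0 of 34 genes were called with the block (background 0.19%, 0.0458% up and 0.144% down), with 9 of 34 and 2349 of all genes at an unadjusted p under 0.05, and 0 of 34 without it, where 2 of 34 and 207 of all genes had an unadjusted p under 0.05. KO was below C54Y with no overlap for 5 genes, Cnn1, Dcn, Lox, Postn and Thbs1 (background 8.84%), and above for Ccl2 and Pdgfra (background 8.64%). With the block the count called was 20 without KO replicate 2, all down (18.5% of all genes called), 7 without WT replicate 1 (5.4%) and 2 without KO replicate 1 (5.97%).

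Ratios between members show that the set did not move as 1 block. Col1a1 over Col1a2, the chains that assemble together, was 1.27, 1.48 and 0.983 in WT, C54Y and KO of replicate 1 and 1.46, 1.44 and 1.57 in replicate 2, a range of 1.60-fold. Cnn1 over Tagln was also even, with a range of 1.52-fold, even though both were lowest by far in KO replicate 1. Tagln over Acta2 was 9.34, 8.30 and 1.39 in WT, C54Y and KO of replicate 1 and 0.719, 0.597 and 0.469 in replicate 2, a range of 19.9-fold. Fn1 over Col1a1 was 22.9, 28.6 and 54.8 in WT, C54Y and KO of replicate 1 and 3.75, 3.77 and 3.95 in replicate 2, a range of 14.6-fold. Within replicate 2 the 3 libraries had nearly the same ratio of Fn1 to Col1a1 and of Bgn to Col1a1 (0.720, 0.730 and 0.717). In KO replicate 1, 11 of the 34 genes stayed within 1.5-fold of WT replicate 1 (Col5a2, Fn1, Fstl1, Fbln2, Lox, Loxl1, Thy1, Prrx1, Twist1, Timp3 and S100a4), while 6 were at least 4-fold lower (Thbs1, Dcn, Tagln, Cnn1, Pdgfra and Twist2). Among those 6, Dcn passed the filter through WT alone, so its direction was fixed by the filter. Counts are compared here as ratios across libraries, not as levels between genes.

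**Figure D4:**
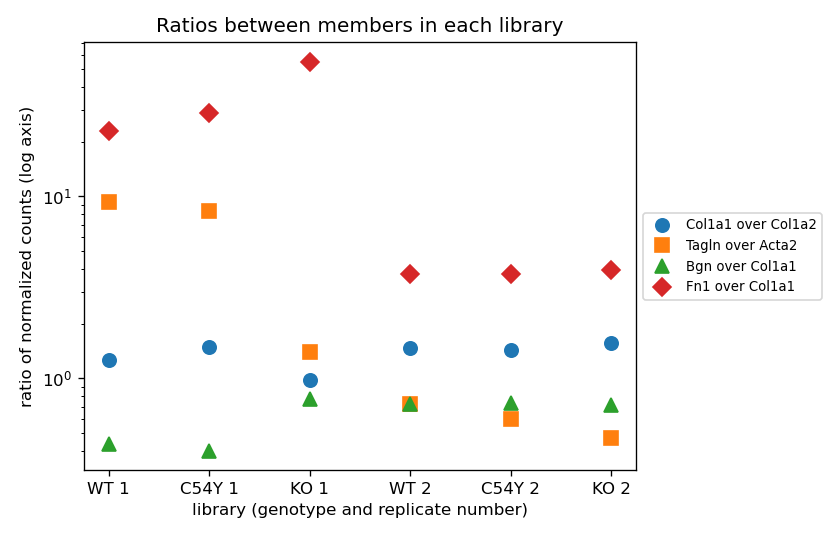
Ratio of normalized counts of 2 genes (y axis, log scale) in each of the 6 libraries (x axis, genotype and replicate number), 1 point per library. Col1a1 over Col1a2 stays between 0.983 and 1.57, while Fn1 over Col1a1 and Tagln over Acta2 are lower in replicate 2 than in replicate 1.

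Further matrix genes were read from lists chosen with earlier results of these data known. Of 40 other fibroblast genes, 35 were tested. Between the replicate numbers 22 up and 2 down of 35 tested were called (background 32% up and 32.8% down; median 0.90). Foxc2 and Osr1, both up, passed the filter through replicate 2 alone and Ogn, down, through replicate 1 alone. Among those up were the matrix glycoprotein gene Tnc (1.87 ± 0.16, adjusted p = 1.09e-05) and the calcification inhibitor gene Mgp (3.65 ± 0.34, adjusted p = 1.91e-05). In KO the list had 0 up and 6 down of 35 tested with the block (background 8.9% up and 7.41% down), and a median of -0.28 against 0.03 for all tested genes. Those down were Mfap4 and Mfap2, microfibril genes (-1.46 ± 0.32, adjusted p = 0.016; -1.26 ± 0.32, adjusted p = 0.0286), the chemokine gene Cxcl12 (-1.28 ± 0.30, adjusted p = 0.0219), Ptx3, Ctgf and Tbx15. Ctgf, a matricellular gene also named Ccn2, had 3949, 2393 and 988 in replicate 1 and 4035, 3765 and 3064 in replicate 2. Summed over the whole list, normalized counts in KO were 0.578 of WT in replicate 1 and 0.866 of WT in replicate 2. In C54Y 0 were called.

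Enzymes that fold, hydroxylate and trim collagen showed no common direction in KO (4 up and 4 down of 24 tested, background 8.9% up and 7.41% down, median -0.01). The procollagen protease enhancer genes Pcolce2 (1.43 ± 0.19, adjusted p = 0.00237) and Pcolce (0.68 ± 0.14, adjusted p = 0.0124) and the protease gene Adamts14 (1.11 ± 0.19, adjusted p = 0.00689) rose, and the lysyl hydroxylase gene Plod2 fell (-1.02 ± 0.20, adjusted p = 0.0121). The TGF-beta and SRF-MRTF contractile targets had 0 up and 5 down of 22 tested (same background) with a median of -0.48. Summed over this list, normalized counts in KO were 0.586 of WT in replicate 1 and 0.995 of WT in replicate 2. The tropomyosin genes Tpm4 (-1.40 ± 0.18, adjusted p = 0.00219), Tpm1 and Tpm2, the caldesmon gene Cald1 (-1.09 ± 0.22, adjusted p = 0.0122) and the TGF-beta feedback gene Skil (-0.98 ± 0.18, adjusted p = 0.0077) fell. Tpm4 had 7879, 5889.8 and 2334 in replicate 1 and 4454, 3705 and 2168 in replicate 2, lower in KO in both numbers. Matrix receptors had 1 up and 5 down of 20 tested (same background), with the integrin genes Itgb1 (-0.78 ± 0.13, adjusted p = 0.00504) and Itga3 (-1.20 ± 0.28, adjusted p = 0.0216) and the collagen receptor gene Mrc2 (-1.06 ± 0.26, adjusted p = 0.0245) down and Itga9 (1.35 ± 0.23, adjusted p = 0.00605) up. The receptor list summed in KO to 0.668 of WT in replicate 1 and 0.938 of WT in replicate 2. All of these calls are from limma with the block and Benjamini-Hochberg adjustment, and without the block 0 were called. In C54Y these 3 lists had 0 called.

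Other cell type markers were summed in the same way. Fibroblast markers (9 genes, 8 tested) summed to 103, 105 and 42.7 in WT, C54Y and KO of replicate 1 and 273, 323 and 280.2 in replicate 2 RPM. Most of this was Col1a1 and Col1a2, with 86.0 of 103 in WT replicate 1 and 237 of 273 in WT replicate 2. Of the 8 tested, Postn and Dcn were not called between the replicate numbers. Parietal endoderm markers, which include basement membrane genes made by other cells too, summed to 3531, 2433 and 1824 in WT, C54Y and KO of replicate 1 and 1409, 1273 and 1280.0 in replicate 2. With the block 4 of 11 were called down in KO (Col4a1, Col4a2, Lama1 and Lamb1; background 7.41%) and 1 up (Nid1; background 8.9%). In C54Y 1 was called, Lama1, down (background 0.399%). Stem cell markers summed to 5883, 6662 and 9238 in WT, C54Y and KO of replicate 1 and 9073, 10531 and 11664 in replicate 2, with KO the highest library of each number, and 6 of 10 rose in KO with the block (Dppa5a, Esrrb, Klf4, Nanog, Pou5f1 and Zfp42; background 8.9%) and 0 without it. Muscle markers were lowest in KO replicate 1 (41.3 against 79.2 to 91.6 elsewhere). This sum hides differences between the replicate numbers. Of 7 tested, 4 were called up in replicate 2 (Actg2, Des, Myh11 and Myog; background 32%) and 1 down (Actc1; background 32.8%). In WT, C54Y and KO, Actg2 had 8.96, 11.6 and 8.69 normalized counts in replicate 1 and 528, 827 and 634 in replicate 2. Endothelial markers (6 of 8 tested) ranged from 50.2 to 116 and early mesoderm markers (6 of 8) from 12.9 to 26.3. In KO with the block, 3 of the 6 mesoderm markers were called down (Hand1, Kdr and Mixl1; background 7.41%) and 1 up (Bmp4; background 8.9%). Bmp4 made up much of the mesoderm sum, with 414 of 822 normalized counts in WT replicate 1 and 721 of 800 in KO replicate 1. Of the 6 endothelial markers, 2 were called up in KO (Pecam1 and Tek) and 1 down (Kdr, which is on both lists). In C54Y 0 were called on either list. The part of these cell types in the differences of the fibroblast and matrix genes was not tested.

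**Figure D5:**
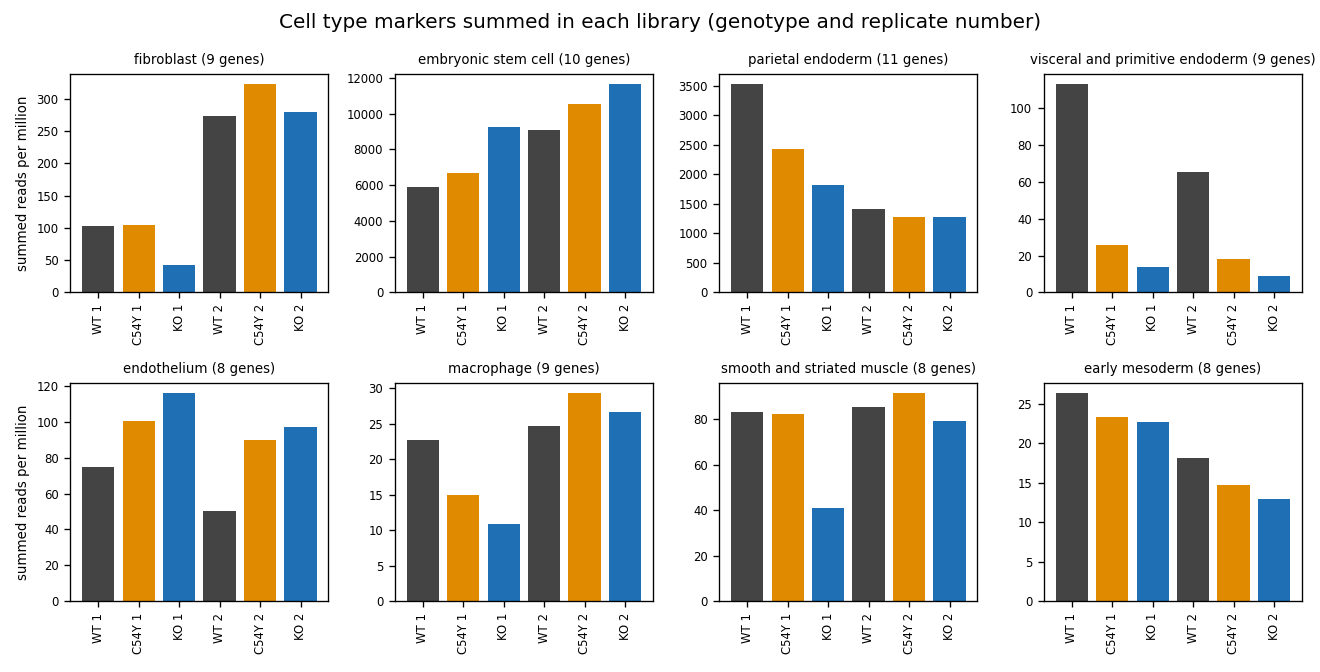
Summed RPM (y axes, each from 0, scales differ) of 8 lists of cell type markers in each of the 6 libraries (x axes, genotype and replicate number), bars coloured by genotype with no error bar since each is 1 library. Fibroblast markers are high in all 3 libraries of replicate 2 and lowest in KO replicate 1, and the visceral and primitive endoderm markers are high in both WT libraries.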

How the data were processed

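The deposited signal values are normalized counts, reads over a size factor for each library. The submitters' processing notes name TopHat2 2.1.0 and mm9, and also CASAVA, Trimmomatic, DESeq2 and HTSeq, and annotation, strand setting and filters are not given in the sources used here. Dividing each column by its smallest step gave whole reads for 100% of values (tolerance 1e-06). Differences were tested with limma 3.58.1 (trend, robust; R 4.3.3) on log2(normalized count + 2) over all 6 libraries, adjusted by Benjamini-Hochberg over 15287 genes. Fold changes on this scale understate changes of low genes. The replicate difference was fitted with genotype as a term.

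The planned model held the group alone. Deviations from group means correlated at 0.907, 0.869 and 0.895 between genotypes, so replicate numbers pair the samples and blocked values (2 residual degrees of freedom against 3) stand beside the others. SEs are from the blocked fit. edgeR 4.0.16 and DESeq2 1.42.0 on recovered reads were alternatives, and the fits were also run on simulated data. The simulation gave all genes the same dispersion and no library a departure of its own, so it cannot check the calls reported here. Members and lists were chosen with earlier results of these data known. Described in full were Col1a1, Col1a2, the 2 highest genes per role (9 roles), called genes and the extremes in KO, and up to 4 genes by smallest p from other lists. Further genes named were chosen after their values were seen. Exon lengths come from GENCODE M21.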

Additional observations from a re-analysis of the deposited data

How the results depend on the processing

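The counts of genes called rest on the replicate block. Without it limma called 0 of the 34 genes in each genotype comparison, at a pseudocount of 0.5 or 8, with no filter on low values or one of 50, and with any library left out. With the block, KO against WT had 2 members and 2494 genes called (2 and 2403 at a pseudocount of 0.5, 2 and 2504 at 8, 3 and 2427 by edgeR with TMM factors), and DESeq2 without the block had 1 and 235. C54Y against WT had 1 and 208 with the block (1 and 193, 1 and 186, 1 and 198 by edgeR) and 28 genes by DESeq2. KO against C54Y had 29 genes called with the block (22, 21 and 29) and 3 by DESeq2. edgeR without the block and the fits with the block and another pseudocount or a library left out were chosen after seeing the data.

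With each library left out, with and without the block, members called (both kinds of fit) ranged from 0 to 16 in KO against WT, 0 to 4 in C54Y against WT and 0 to 20 in KO against C54Y, and all genes called from 0 to 4861, 0 to 1818 and 0 to 2831. The median log2 fold change of the members ranged from -1.66 to 0.51, -0.65 to 0.83 and -1.46 to 0.50. Without KO replicate 1, 22 members were lower and 12 higher in KO with the block, and 12 lower and 22 higher without it, against 28 and 6 with all libraries. Among the members followed singly, log2 fold changes in KO against WT spanned both signs for Col1a1 (-2.41 to 1.18), Col1a2 (-1.95 to 0.98) and Acta2 (-3.54 to 2.15; also 0.28 by DESeq2 and 0.22 by edgeR without the block). Pdgfra in KO against C54Y ranged from -0.024 to 0.46, and Thbs1 between the replicate numbers from -0.73 to 0.48. Unblocked fits lacking 1 library are unbalanced over the replicate numbers. The cause of each other change was not tested.

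With the TMM factor beside the library total, all members summed to 1960.0, 2095 and 1093 RPM in WT, C54Y and KO of replicate 1 and 2113, 2417 and 2203 in replicate 2. The order of replicate 1 and replicate 2 in WT and C54Y therefore depends on the scaling, while KO replicate 1 stayed lowest. Differences between the replicate numbers kept a count of 21 to 26 members in all alternatives tried.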
